A study of Mus musculus with 6 samples.

Results

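The distal microRNAs of the imprinted Dlk1-Dio3 domain were followed in a mouse epicardial cell line with and without targeting of the histone deacetylase gene Hdac3. The members were taken by name: the count table was searched for 36 hairpins, from miR-379 to miR-3072, with either arm. This gave 69 mature microRNAs of the 1028 in the table, with at least 1 row for every hairpin. Of the 69, 53 (from 34 hairpins) had at least 50 reads summed over the 6 libraries and were tested. The other 16 were too scarce. The study compared 3 libraries of cells given an empty-vector lentivirus (EV) with 3 libraries of cells given an Hdac3 sgRNA lentivirus for CRISPR/Cas9 knockout (KO), all from the same cultured line in serum-containing medium. The labels call the line Mouse Epicardial cell (MCEC) and also MEC. They do not say whether it was transduced as a pool or as a clone. Nor do they say that replicates were separate cultures. The p-values then reflect only how far these samples scatter, which may be technical.

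The epicardium is the outer cell layer of the heart, and Hdac3 is the catalytic subunit of the NCoR and SMRT repressor complexes. In the Dlk1-Dio3 domain the protein-coding genes Dlk1, Rtl1 and Dio3 are expressed from the paternal chromosome. The noncoding RNAs Meg3, Rian and Mirg and the microRNAs between and within them are expressed from the maternal one, under a shared imprinting control region. The distal group, often called the miR-379/miR-410 cluster, is transcribed as long precursors that are cut into many hairpins. It is known from neurons, where Mef2 factors activate it and miR-134-5p represses Limk1 in dendrites, and from the newborn's adaptation to fasting. In cardiac muscle cells miR-410 and miR-495 have been described as promoting proliferation through Cited2. Small-RNA reads of a mature microRNA do not show which parental allele they came from.

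All 36 hairpins lie on chromosome 12 between 109709060 and 109747960 (GRCm38, the sequence of mm10), within 38.9 kb. On the plus strand there are 35, with gaps of 49 to 4378 bp (median 637), and miR-299b is on the minus strand, opposite miR-299a. In GENCODE M21 the Mirg gene spans 109729764 to 109749460. Only 13 of the hairpins, from miR-382 on, lie inside it, 4 in introns, 4 within an exon of at least 1 transcript and 5 across an exon boundary. The other 23 lie upstream of it, outside annotated genes on their strand. The label Mirg therefore covers only the downstream hairpins in this annotation.

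RefSeq mature sequences (GRCm38.p6) matched 65 of the 69 members. The hairpin of miR-409 (chromosome 12, 109743158 to 109743236, plus strand, intron of Mirg) is shown because it gave the only member that passed the test. Capitals mark its 5p arm and then its 3p arm.
miR-409 hairpin: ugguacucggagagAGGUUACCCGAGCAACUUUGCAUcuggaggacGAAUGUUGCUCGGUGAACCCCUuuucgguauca
The next sequences are the members nearest to the threshold, the most abundant members, and the member with the largest change above 0. Capitals mark the seed, bases 2 to 8, which guides pairing with target mRNAs.
miR-409-3p: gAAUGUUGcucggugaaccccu
miR-382-5p: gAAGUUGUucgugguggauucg
miR-382-3p: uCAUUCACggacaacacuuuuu
miR-543-3p: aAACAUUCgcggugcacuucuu
miR-666-5p: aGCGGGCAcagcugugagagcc
miR-323-3p: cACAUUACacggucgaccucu
miR-379-5p: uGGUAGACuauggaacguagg
miR-411-5p: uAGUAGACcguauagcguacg
miR-541-5p: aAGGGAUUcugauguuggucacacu
miR-381-3p: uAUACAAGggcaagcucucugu
miR-300-3p: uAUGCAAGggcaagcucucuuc
miR-134-5p: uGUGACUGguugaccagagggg
miR-496a-3p: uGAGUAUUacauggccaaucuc
The seeds are diverse: the 50 tested members with a sequence carried 49 different seeds. The pair that shared one was miR-379-3p and miR-411-3p, whose hairpins are neighbours.
miR-379-3p: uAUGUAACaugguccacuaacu
miR-411-3p: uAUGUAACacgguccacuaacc
These 2 sequences differ at 2 of 22 bases, none in the seed. miR-300-3p and miR-381-3p differ at 3 of 22 bases, 1 of them in the seed, and miR-379-5p and miR-411-5p at 7 of 21, 1 in the seed. Another 3 members shared a seed with a tested microRNA outside the set: miR-379-5p with miR-1193-5p, miR-329-3p with miR-362-3p, and miR-410-3p with miR-344d-3p. The handling of reads matching more than one mature sequence is not given in the labels or file headers, so the split between close sequences such as the miR-376 members is uncertain.

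The libraries held 11824881 to 13412774 reads, and 1 read was worth 0.0638 to 0.0892 CPM (reads relative to library size after scaling with TMM factors of 0.919 to 1.22, the highest in EV 1). Libraries are named by group and replicate, and 3 values in a row follow replicates 1 to 3. Hdac3 mRNA is outside small-RNA sequencing, and the knockout could not be checked. Of the 5 mesenchymal markers listed for the line all were detected, led by miR-21a-5p and miR-143-3p. Markers of blood cells summed to at most 1.55 CPM in any library and the 2 endothelial markers to 34.6 to 42.1 CPM. Those of heart and skeletal muscle summed to 0.893, 1.22 and 1.34 CPM for EV and 2.51, 1.83 and 2.21 CPM for KO, without overlap. They were led by miR-1a-3p, which was not called (log2 difference 1.06, edgeR adjusted p = 0.0647), and miR-133a-3p was at most 0.0892 CPM. Of the red-blood-cell markers, miR-144-3p had 1 read in all, in EV 2, and miR-144-5p had no row in the counts. The other one listed, miR-451a, reached 54.7 CPM in EV 3 and 62.6 CPM in KO 2, with at most 2.45 CPM elsewhere. The 5 neural markers, which matter here because neurons express this cluster, summed to 114 to 165 CPM in EV and 105 to 167 in KO, highest in the same 2 libraries. The liver marker miR-122-5p was at 3.24 CPM in KO 1 and 0.408 to 0.819 CPM elsewhere. Of the pluripotent-cell markers only miR-302b-3p had a row in the counts, at 1.05 CPM in KO 1 and 0 elsewhere. None of the tested markers was called between the groups by edgeR. Of the neural ones, miR-9-5p was at 51.4 CPM in EV 3, 57.0 in KO 2 and 11.3 to 32.6 elsewhere, miR-128-3p was at 88.1 to 109.7 CPM, and miR-124-3p was at 0 in 3 libraries and at most 0.717 CPM in the others. The part of these cell types in the results was not tested, and values without EV 3 and KO 2 together are given below for the named members whose call they changed, and for miR-541-5p and miR-495-3p. In bulk samples fewer expressing cells and less RNA per cell cannot be told apart.

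**Figure D1:**
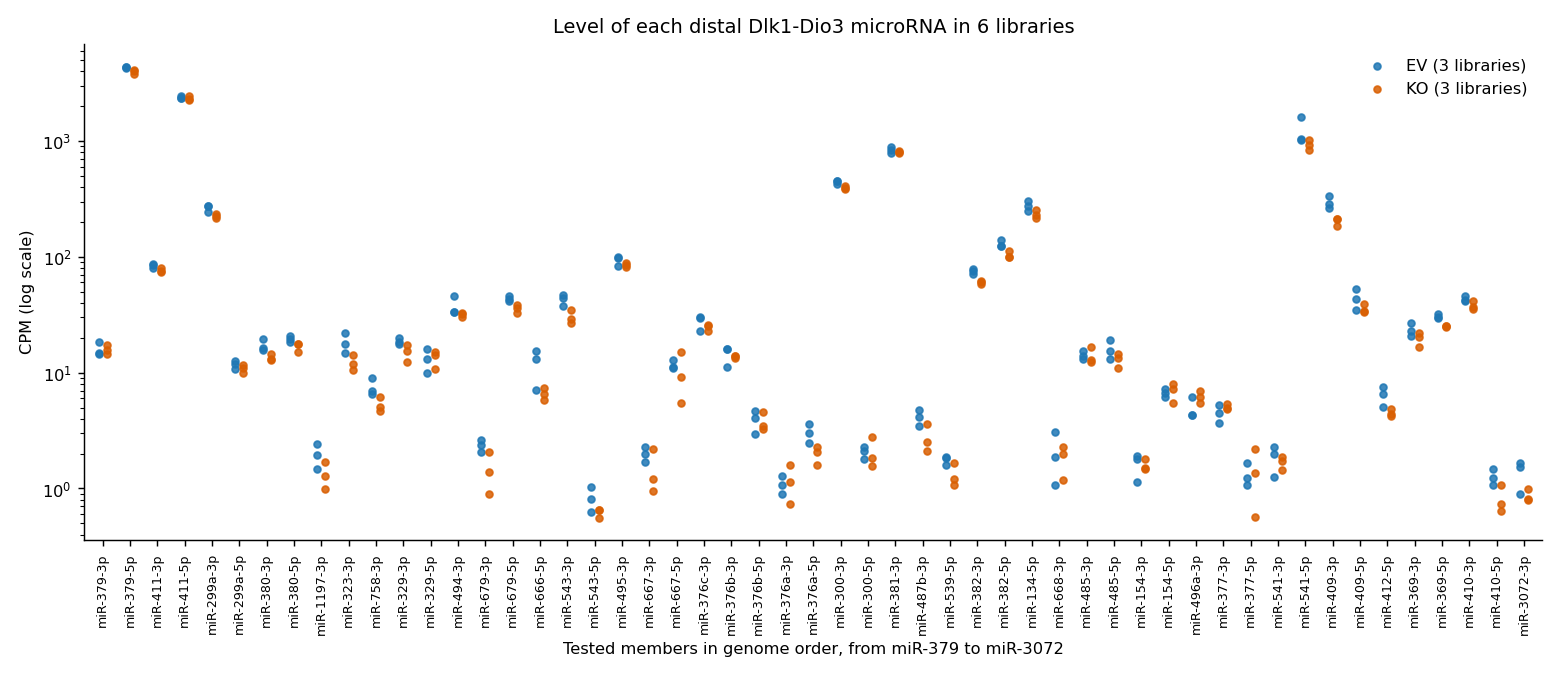
CPM of the 53 tested members in each of the 6 libraries (log axis), in genome order, with EV libraries at the left and KO libraries at the right of each position. Levels ran from a mean of 0.720 CPM for miR-543-5p to 4145 CPM for miR-379-5p, and the 5 most abundant members were miR-379-5p, miR-411-5p, miR-541-5p, miR-381-3p and miR-300-3p.

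As a group the members took a slightly smaller part of the KO libraries. They made up 1.31, 1.13 and 1.03% of all reads in the EV libraries, against 0.904, 0.996 and 0.916% for KO. Unscaled shares also vary with the most abundant microRNAs. Among them miR-21a-5p stood at 514475, 654119 and 763168 CPM for EV and 754660, 675191 and 726176 for KO. Its part in these shares was not tested. After TMM scaling the summed level of the members was 10723, 10880 and 11216 CPM for EV against 9828, 10092 and 9698 CPM for KO. Every KO library was therefore below every EV library on both scales. The mean sum was 10940 ± 252 CPM in EV and 9872 ± 201 in KO (SD, n = 3 each), a ratio of 0.902, given as a description with no test. miR-379-5p alone held 39.9% of the members' reads, and the top 3 members 72.7%. The sum follows those few. The median over the 53 members, which weights them equally, showed the same order: relative to the mean of the 6 libraries it lay at 0.11, 0.13 and 0.11 (log2) for EV and -0.11, -0.07 and -0.12 for KO. The same median over all 476 tested microRNAs stayed between -0.03 and 0.03.

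**Figure D2:**
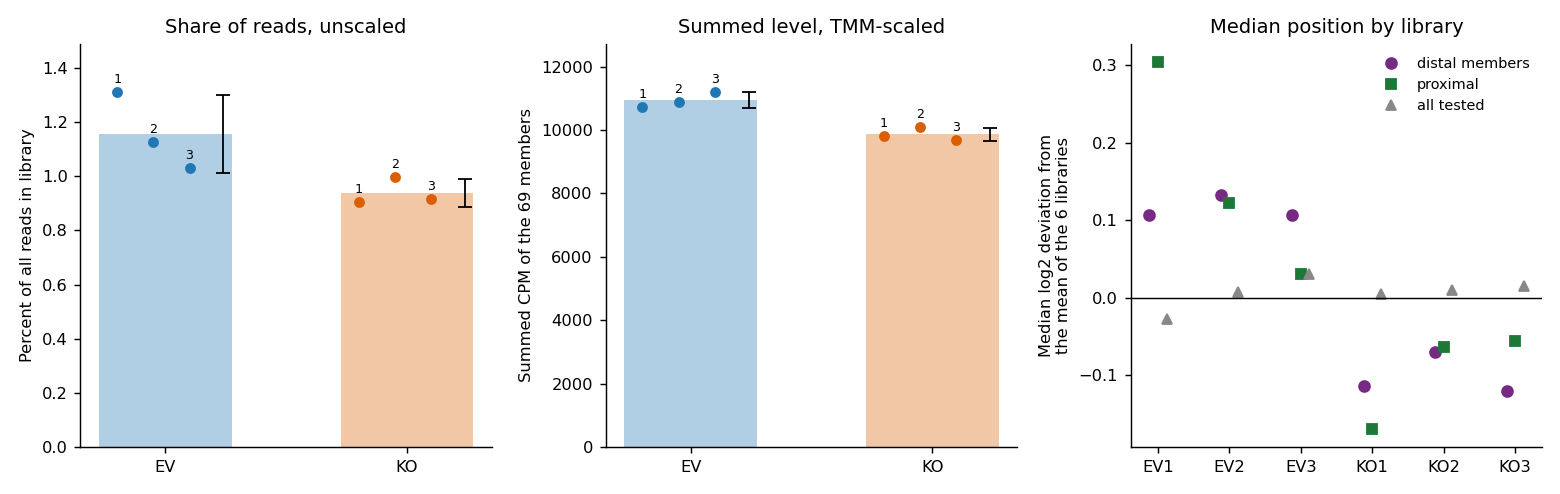
The left panel shows the members' share of all reads in each library and the middle panel their summed CPM, with points for libraries, bars for the mean and whiskers for the SD (n = 3). The right panel shows the median log2 deviation from the 6-library mean for the distal members, the proximal Dlk1-Dio3 microRNAs and all tested microRNAs. The EV medians of the distal members lie at 0.11 to 0.13 and the KO medians at -0.12 to -0.07.

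Against this, 1 member passed the test. miR-409-3p fell by 30.5% in KO, and 52 of the 53 tested members were not called (edgeR quasi-likelihood, Benjamini-Hochberg over 476 microRNAs). Over all tested microRNAs 6.93% were called in either direction and 2.52% were called lower, beside 1.89% of the members. No member was called higher, where the background was 4.41%. The count depended on the setting, and in each case the called members were lower in KO. DESeq2 called 7 of 53 (13.2%), where 4.41% of all tested were called lower, and limma-voom called 2 (3.77%), where 3.15% were. Without EV 3 the number was 4 (7.55%, background 3.99%), and without EV 3 and KO 2 together it was 9 (17.0%, background 7.14%). It was 0 without KO 1 (background 0.42%) and 0 without KO 2 (background 0.63%). With library size alone as the scaling it was 0 (background 0.84%), with library size counted without miR-21a-5p 6 (11.3%, background 5.25%), and with TMM factors from rows outside the domain 3 (5.66%, background 3.57%). With no filter on low counts 5 of the 69 rows were called (7.25%, background 2.72%), and with a filter at 10 CPM 4 of 31 (12.9%, background 7.6%).

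The direction was more uniform than the calls. Of the 53 tested members 47 had a log2 change below 0, or 88.7%, against a background of 51.7% over all tested microRNAs. The median change was -0.25 over the members, with quartiles at -0.43 and -0.07, and -0.01 over all tested. In 19 members (35.8%) all 3 KO values lay below all 3 EV values, with a background of 13.4%. An unadjusted edgeR p under 0.05 was reached by 17 members, all lower (32.1%, where 22.7% of all tested reached it in either direction). In no member did all KO values lie above, where the background was 14.9%. The same 17 members (32.1%) had a 95% interval of the log2 change wholly below 0, as the interval and the p-value come from 1 test. Over all tested the share with such an interval was 10.3%, and 0 members had an interval wholly above 0. The members come from shared precursors and some are the 2 arms of 1 hairpin, so they are not independent of each other. With library size alone 51 lay below 0 and the median was -0.40, but the median over all microRNAs then moved to -0.16. Relative to the median over all microRNAs, the members' median stayed between -0.28 and -0.21 in all 17 other settings. A change of scaling moves all rows nearly alike, so the settings that differ only in scaling could hardly move this difference.

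**Figure D3:**
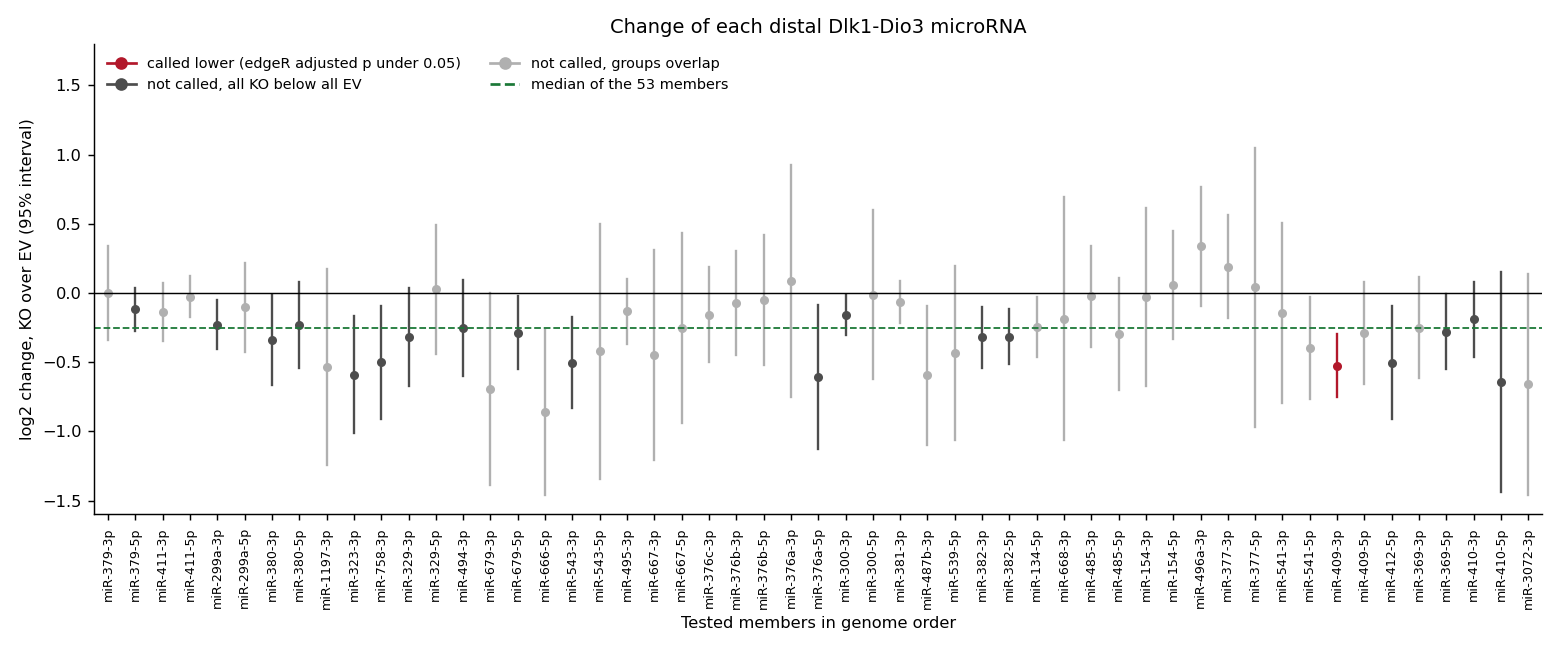
Log2 change of KO over EV with its 95% interval for each tested member in genome order. Red marks the called member, miR-409-3p, dark grey marks members not called whose KO values all lie below their EV values, light grey marks members whose groups overlap, and the dashed line is the median, -0.25.

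miR-409-3p is the more abundant arm of its hairpin. Its EV libraries held 333, 264 and 285 CPM, and its KO libraries 186, 213 and 213 CPM. The groups did not overlap: the lowest EV library, EV 2, was still above each KO library. The log2 change was -0.53 (SE 0.10, 95% interval -0.75 to -0.30, edgeR adjusted p = 0.0140). It was not called without KO 1 (edgeR adjusted p = 0.0881), without KO 2 (edgeR adjusted p = 0.0526) or with library size alone (edgeR adjusted p = 0.0771), and it was called in the other 14 of 17 settings. Its partner arm miR-409-5p, at 39.4 CPM on average, had a change of -0.29 (SE 0.16), was not called, and its groups overlapped.

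The 6 members next to the threshold all had lower KO means, and none was called. Both arms of miR-382, the first hairpin inside Mirg, had similar changes. miR-382-5p stood at 139, 125 and 125 CPM for EV and 100.2, 111 and 100.4 for KO. Its log2 difference of -0.32 was not called (SE 0.09, edgeR adjusted p = 0.0659). miR-382-3p stood at 71.7, 75.1 and 78.1 CPM for EV and 60.4, 62.0 and 57.7 for KO, also -0.32 (SE 0.10, edgeR adjusted p = 0.0817). Neither arm's groups overlapped. miR-382-5p was called in 6 of 17 other settings, among them without EV 3 (edgeR adjusted p = 0.0354) and without EV 3 and KO 2 together (edgeR adjusted p = 0.0208), and miR-382-3p in 3.

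Upstream of Mirg, miR-543-3p stood at 47.1, 37.9 and 44.0 CPM for EV and 26.8, 34.9 and 29.3 for KO. Its log2 change was -0.50 (SE 0.15, edgeR adjusted p = 0.0700), and the groups did not overlap. It was called in 6 of 17 other settings, among them without EV 3 and KO 2 together (-0.60, edgeR adjusted p = 0.00693). miR-323-3p stood at 22.1, 14.8 and 17.8 CPM for EV and 11.8, 14.1 and 10.5 for KO, again without overlap but with EV 2 close to KO 2. Its change was -0.59 (SE 0.19, edgeR adjusted p = 0.0943), and -0.74 without EV 3 and KO 2 together (edgeR adjusted p = 0.0107).

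miR-666-5p had the largest change of the 53, at low counts. It stood at 15.4 and 13.1 CPM in EV 1 and EV 2 but at 7.05 in EV 3, within the KO values of 5.76, 7.33 and 6.55. The groups therefore overlapped through EV 3. The log2 change was -0.86 (SE 0.26, edgeR adjusted p = 0.0857), and without EV 3 it was -1.12 (SE 0.18, edgeR adjusted p = 0.00550). Without EV 3 and KO 2 together it was -1.21 (edgeR adjusted p = 8.48e-05). miR-299a-3p, the more abundant arm of its hairpin, was the last of the 6, at 276, 242 and 274 CPM for EV and 215, 227 and 233 for KO. Its change was -0.23 (SE 0.08, edgeR adjusted p = 0.124), without overlap.

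**Figure D4:**
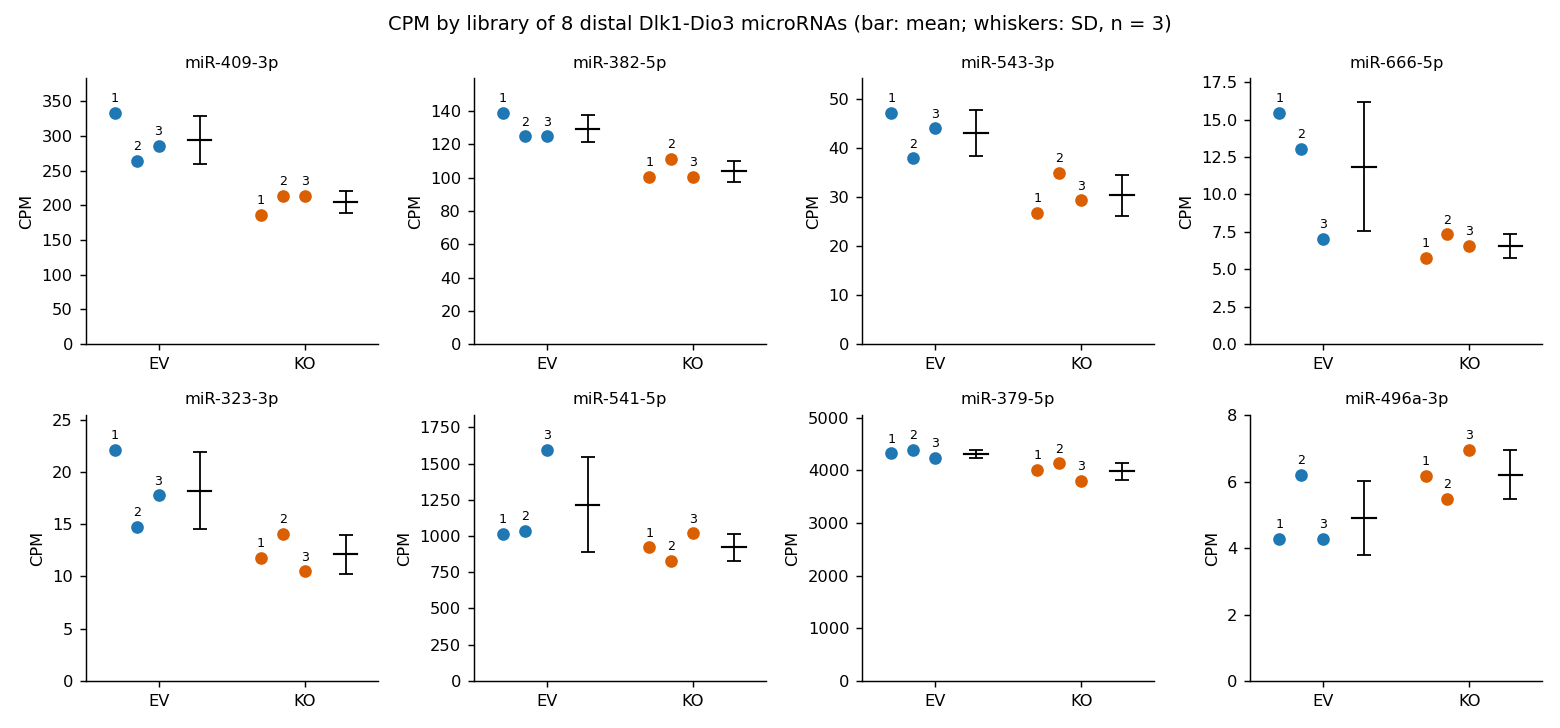
CPM of 8 members by library (points numbered by replicate), with the mean and SD of each group (n = 3) beside them and axes starting at 0. In miR-409-3p, miR-382-5p, miR-543-3p, miR-323-3p and miR-379-5p every KO point lies below every EV point, in miR-666-5p and miR-541-5p 1 EV library stands apart, and miR-496a-3p is higher on average in KO with overlapping groups.

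The 2 most abundant members had small log2 changes. miR-379-5p, the first hairpin of the group, stood at 4320, 4388 and 4228 CPM for EV and 4009, 4129 and 3794 for KO. These values did not overlap, yet the log2 change was only -0.12 (95% interval -0.27 to 0.04) and was not called by edgeR. miR-411-5p, second in order and level, stood at 2339, 2433 and 2360 CPM for EV and 2325, 2426 and 2258 for KO. Its groups overlapped, at -0.03 (95% interval -0.17 to 0.12), an interval that leaves out a change as large as that of miR-409-3p.

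miR-541-5p, inside Mirg, ranked next in level, and 1 library moved its value by more than 1.5 times. Its levels were 1015, 1038 and 1595 CPM for EV and 921, 831 and 1018 CPM for KO, EV 3 standing apart. Its log2 change was -0.40 (SE 0.16, edgeR adjusted p = 0.193), -0.15 (SE 0.09) without EV 3 and -0.08 (SE 0.11) without EV 3 and KO 2 together. miR-381-3p and miR-300-3p, the near-identical neighbours, were at -0.06 (SE 0.07) and -0.16 (SE 0.06). Only the latter's groups did not overlap, with 447, 424 and 449 CPM for EV against 391, 410 and 383 in KO.

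miR-134-5p, the dendritic microRNA, stood at 304, 276 and 247 CPM for EV and 216, 254 and 227 for KO, overlapping through EV 3 and KO 2. Its change was -0.25 (SE 0.10, edgeR adjusted p = 0.178), and it was called without EV 3 (edgeR adjusted p = 0.0462) and without EV 3 and KO 2 together (-0.39, edgeR adjusted p = 0.0160). Without EV 1 it was -0.16. miR-495-3p, one of the pair linked to cardiac muscle cell proliferation, was at -0.13 (SE 0.10) with overlapping groups. It was at -0.21 without EV 1 and -0.08 without EV 3, and -0.08 also without EV 3 and KO 2 together. The other of that pair, miR-410-3p, had a mean of 40.8 CPM and was at -0.19 (SE 0.12), with all KO values below the EV values. Neither was called by edgeR.

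By level, the 9 members with a mean of at least 100 CPM were all below 0, with a median change of -0.23 and a median SE of 0.08. Of the 31 at or above 10 CPM, 30 were below 0, with a median of -0.25. Of the 22 under 10 CPM, 17 were below 0, with a median of -0.43 but a median SE of 0.28. For 17 of these 22 the 95% interval included 0.

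Members with changes above 0 numbered 6, none called, and each with overlapping groups. These were miR-496a-3p at 0.34 (95% interval -0.09 to 0.76), miR-377-3p at 0.19 (-0.18 to 0.57), miR-376a-3p at 0.09 (-0.75 to 0.93), miR-154-5p at 0.06 (-0.33 to 0.45), miR-377-5p at 0.04 (-0.97 to 1.05) and miR-329-5p at 0.03 (-0.44 to 0.49). The 4 of them from miR-154, miR-496a and miR-377 come from 3 consecutive hairpins inside Mirg. The other tested arm of these hairpins, miR-154-3p, was at -0.03 (-0.24 to 0.13 over the other settings). miR-496a-3p stood at 4.27, 6.20 and 4.28 CPM for EV and 6.16, 5.49 and 6.96 for KO, so EV 2 lay among the KO libraries. Only miR-496a-3p and miR-377-3p kept a change above 0 in each setting in which they were tested.

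The changes were also described by position, with no test. The 32 tested members upstream of Mirg had a median of -0.24, with 30 below 0 and 12 (37.5%) without overlap. The 21 within Mirg had a median of -0.25, with 17 below 0 and 7 (33.3%) without overlap. Over all tested microRNAs 51.7% were below 0 and 13.4% had all KO values below all EV values. Their levels did differ, the summed mean being 8457 CPM upstream and 1946 within. Each member was also compared with the mean of the other members (limma diffSplice on voom values, chosen after the data were seen). The adjustment ran over 285 rows, the members as 1 set and other microRNAs grouped by hairpin. In this comparison 0 of 53 members passed, 7 having an unadjusted p under 0.05. The share of the other rows with such a p was not counted. The lowest was miR-666-5p, 0.59 below the others on the log2 scale (limma adjusted p = 0.212), and miR-409-3p had a difference of -0.30 (limma adjusted p = 0.259). The highest was miR-496a-3p, 0.59 above the others (limma adjusted p = 0.259). Of the 7, miR-323-3p and miR-543-3p also lay below the others, and miR-411-5p and miR-377-3p above.

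The balance of the hairpin arms was compared next, since 1 strand of a hairpin is usually kept. Both arms were tested in 19 hairpins, of which 11 had more 5p and 8 more 3p reads. The 5p arm led most in miR-541 and miR-379, with mean log2 ratios of 5p to 3p in EV of 9.35 and 8.09. The 3p arm led most in miR-300, at -7.72. KO differed from EV in 0 of the 19 (limma on the log2 ratio, smallest adjusted p = 0.991), where 0% of all 135 hairpins were called. None of the 19 had an unadjusted p under 0.05, which 6.67% of all hairpins had. In 2 of the 19 hairpins all KO ratios lay above all EV ratios, where 7.41% of all hairpins did so. For miR-329 the mean ratio was -0.53 in EV and -0.17 in KO, a difference of 0.36 (95% interval -0.12 to 0.84). For miR-411 the means were 4.82 and 4.93. The difference for miR-409 was 0.25 (95% interval -0.14 to 0.64).

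**Figure D5:**
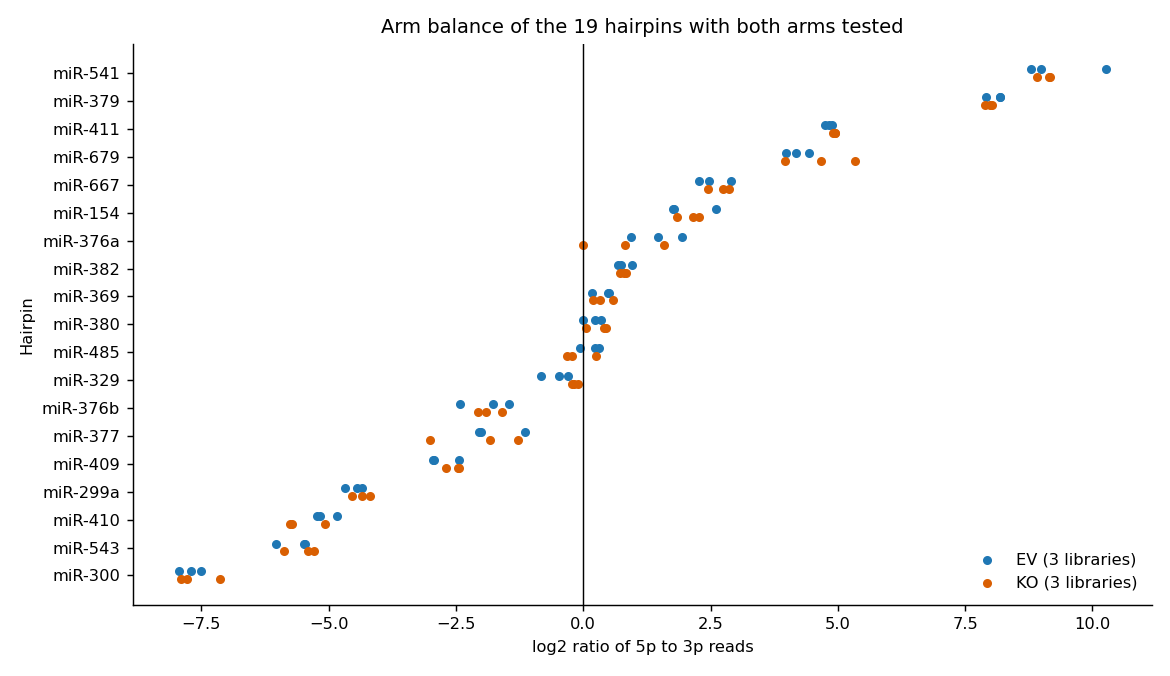
Log2 ratio of 5p to 3p reads in each library for the 19 hairpins with both arms tested, with EV libraries drawn above KO libraries on each line. Ratios span from about -7.7 for miR-300 to 9.35 for miR-541 (EV means), and the 2 groups lie close together on each line.

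The members that share a seed were not called either. miR-379-3p, at 14.8, 18.3 and 14.5 CPM for EV and 15.7, 17.3 and 14.6 for KO, was at -0.00 (SE 0.15), and miR-411-3p was at -0.14 (SE 0.09), both with overlapping groups. miR-329-3p was at -0.32 (SE 0.16), and all its KO values lay below its EV values.

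Among the scarce members, 11 of the 16 untested rows had at most 10 reads in all and 5 had 20 to 49. miR-543-5p, with 56 reads, was the tested member nearest to the minimum, at 0.557 to 1.02 CPM, and miR-412-3p, with 38 reads, was the nearest below it, at 0.268 to 0.655 CPM. The 95% interval of miR-543-5p ran from -1.34 to 0.50 on the log2 scale. miR-544-5p, miR-539-3p and miR-666-3p had 1 read each in the 6 libraries together.

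The proximal microRNAs of the same domain, nearer to Meg3, Rtl1 and Rian, had a median of the same size. Of 27 tested, 26 were below 0 (96.3%, background 51.7%), with a median of -0.26. An unadjusted edgeR p under 0.05 was reached by 5 of the 27, where 22.7% of all tested reached it in either direction. By library the proximal median lay at 0.30, 0.12 and 0.03 (log2, relative to the mean of the 6 libraries) for EV. For KO it lay at -0.17, -0.06 and -0.06. In 8 all KO values lay below all EV values (29.6%, background 13.4%), and miR-370-3p alone was called, lower in KO (3.70%, background 2.52%, edgeR). Some of these rows had nearly equal reads, so the counts may hold the same reads more than once. miR-136-3p and miR-3071-5p had 21781 and 21527 reads in all, each at -0.17, and both are among the 26, the 8 and the 5. miR-337-3p and miR-3544-5p had 73 and 72 reads, and both are among the 26. The way such reads were counted was not tested. They were measured in the same libraries and are no independent support. The 2 arms of miR-1193, a distal hairpin outside the naming rule, were at -0.22 (SE 0.15) and -0.20 (SE 0.18) for 3p and 5p and were not called by edgeR.

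The authors' deposited table lists 78 microRNAs at an adjusted p under 0.05, of which 11 (14.1%) are distal members, all lower in KO. For comparison, the members were 53 of the 476 microRNAs tested here. How many of the other listed microRNAs were lower in KO was not counted. The authors' deposited table gives log2 changes of -0.53 for miR-409-3p, -0.33 for both arms of miR-382, -0.50 for miR-543-3p, -0.57 for miR-323-3p and -0.75 for miR-666-5p. It also lists miR-380-3p at -0.35, miR-679-5p at -0.30, miR-369-5p at -0.29, miR-299a-3p at -0.24 and miR-300-3p at -0.17. All 11 had an unadjusted p under 0.05 in the edgeR fit, 10 had groups that did not overlap, and 6 were among the 7 called by DESeq2 here. These come from the same 6 libraries and are not a further test.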

How the data were processed

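Small RNAs were sequenced from 3 EV and 3 KO libraries, grouped by sample title. Per the labels' protocols, total RNA was extracted with Trizol and libraries were made with a NEBNext small-RNA kit and size-selected on a gel. Bowtie, mm10 and DESeq 1.8.3 are named in the submitters' processing notes, and the series' design text names DESeq2. The deposited whole-number read counts were analysed. The deposited TPM values are the same counts divided by library size (CPM) and were not used, and the authors' table (mean normalized signal per group, log2 fold change, p-value and adjusted p-value) was used only where named. Ligation and PCR copies bias levels between microRNAs, so each is best compared with itself.

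Rows with at least 50 reads over the 6 libraries (476 of 1028) were fitted with edgeR 4.0.16 (R 4.3.3): TMM factors, quasi-likelihood F test, two-sided, Benjamini-Hochberg at 0.05. Arm ratios (prior count 0.5) were tested with limma 3.58.1. Alternatives included DESeq2 1.42.0 and limma-voom. Scripts were tested on simulated data. The members and lists were chosen with earlier results of these data known. Named members are those called, the 10 most abundant, the 6 uncalled with the smallest p, those above 0, those nearest the read minimum on either side and those sharing a seed. miR-154-3p, miR-409-5p, miR-410-3p and the 1-read rows were chosen after their values were seen. So were the members in the authors' deposited table and those in the closing section.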

Additional observations from a re-analysis of the deposited data

How the results depend on the processing

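No member was called higher in any of the 17 other settings, and the members' median kept its sign in each. The number of members called (1) became 0 with library size alone, 6 with library size without miR-21a-5p, 3 with TMM without Dlk1-Dio3 rows, 7 with DESeq2, 2 with limma-voom, 5 with no filter, 4 with the 10 CPM filter and 9 without EV replicate 3 and KO replicate 2 together. Leaving out each library gave 0 to 4. In the same order of scalings the median was -0.40, -0.34 and -0.30; it was -0.28 with no filter, -0.22 without EV replicate 3 and KO replicate 2 together, and -0.27 to -0.22 leaving out each library. With the 10 CPM filter 29 of the 31 members were below 0, as fewer were tested. The proximal count (1 of 27) became 0, 5 and 2 with those scalings. All were lower in KO, against 0.84, 5.25 and 3.57% of all rows called lower. It was 2 of 27 with DESeq2 (background 4.41%) and limma-voom (3.15%), and 2 of 14 with the 10 CPM filter (7.6%). With no filter it was 3 of 34 (2.72%), and without EV replicate 3 and KO replicate 2 together 4 of 27 (7.14%). Leaving out each library gave 0 to 3 (0.42 to 3.99%). The log2 ratio of the summed level (-0.15) was -0.30, -0.24 and -0.20 with those scalings and -0.16 to -0.13 leaving out each library. The arm comparison gave 0 in each alternative. The causes were not tested.

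The replicate number as a block gave 3 called members (miR-409-3p, miR-541-5p and miR-666-5p) and 32 microRNAs in all against 33. The deviations of same-numbered libraries correlated at 0.29, 0.07 and -0.15, and not every library correlated best with its own number, so the numbers were not taken to pair the samples.

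The log2 change of 13 of the 53 tested members changed sign in at least 1 other setting, none of them called. Of these, 3 were more than 0.1 from 0: miR-667-5p (-0.25) was at up to 0.12 and miR-668-3p (-0.18) at up to 0.29, both above 0 without KO replicate 2, and miR-541-3p (-0.15) was at 0.0021 without EV replicate 2. The values of the other named members that changed sign follow, those of miR-154-3p having been given above. With library size alone, miR-154-5p was at -0.11, miR-329-5p at -0.11, miR-376a-3p at -0.075 and miR-377-5p at -0.13. With library size without miR-21a-5p these were -0.039, -0.063, -0.015 and -0.060. With TMM without Dlk1-Dio3 rows miR-329-5p was at -0.019 and miR-377-5p at -0.0060. miR-377-5p was at -0.14 with limma-voom, -0.035 with the block and -0.072 without EV replicate 3 and KO replicate 2 together, where miR-376a-3p was at -0.33. miR-379-3p (-0.00) was at 0.0066 with limma-voom, 6.52e-04 with filterByExpr, 0.013 with the 10 CPM filter and 0.0034 with the block. Leaving out each library gave -0.060 to 0.20 for miR-154-5p, -0.13 to 0.20 for miR-329-5p, -0.21 to 0.33 for miR-376a-3p, -0.47 to 0.41 for miR-377-5p and -0.066 to 0.092 for miR-379-3p.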

Other observations

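The miR-299 locus yields RNA names on both strands, and the minus-strand names had few reads. miR-299b-3p and miR-299b-5p each had 33 reads in all, with identical counts in every library (6, 13 and 1 for EV replicates 1 to 3, then 4, 3 and 6 for KO). Their mature sequences are contained in those of the plus-strand arms, miR-299b-3p at bases 1 to 18 of the 22 of miR-299a-3p, and miR-299b-5p at bases 2 to 22 of miR-299a-5p.
miR-299a-3p: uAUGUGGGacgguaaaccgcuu
miR-299b-3p: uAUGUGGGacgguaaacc
miR-299a-5p: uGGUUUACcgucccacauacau
miR-299b-5p: gGUUUACCgucccacauacau
Capitals mark the seed of each. Among rows with at least 30 reads, 5 pairs in the whole table had identical counts in all 6 libraries, and this was the only pair of members among them. The way such reads were counted was not tested.

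Members differed in which EV library was highest. miR-666-5p and miR-668-3p were lowest in EV 3 among the EV libraries, with EV 1 at 15.4 and 3.06 CPM and EV 3 at 7.05 and 1.07 CPM. miR-541-5p and miR-494-3p were highest in EV 3, at 1595 and 46.3 CPM against at most 1038 and 33.6 CPM in EV 1 and EV 2. The highest of the 6 libraries was an EV library for 45 of the 53 tested members, and the lowest was a KO library for 42. These counts restate the direction given above from the same values. Their shares over all tested microRNAs were not computed.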
